A study of Homo sapiens with 10 samples.

Results

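The effect of a hydroxyl at C1α on 20(OH)D3 was read by setting 1,20(OH)2D3 against 20(OH)D3, compounds that otherwise have the same structure. The comparison took 4 of the 10 RNA-seq libraries of the series, 1 library for each compound in each of 2 genotypes, and paired them by genotype. All came from WM164, a human melanoma line, grown in charcoal-treated serum and exposed for 24 h to 100 nM of the compound. The cells were labelled VDR-KD, which the sample labels call a knockout and the paper a knock down, or VDR-WT, which received a scrambled construct. In the order used below the libraries were thus 1,20(OH)2D3 in VDR-KD, 1,20(OH)2D3 in VDR-WT, 20(OH)D3 in VDR-KD and 20(OH)D3 in VDR-WT. The treatment label of the 20(OH)D3 library of VDR-KD reads 2(OH)D3 and its title 20OHD3, and it was taken as 20(OH)D3. No condition had a second library. Triplicates are mentioned in the submitters' notes, but the sources used here do not say whether cultures were pooled or whether the VDR-KD cells are 1 clone. A p-value below therefore reflects only how these libraries vary, and part of that may be technical.

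The prohormone vitamin D3 acquires hormonal activity through hydroxylation. In the classical route the liver adds a hydroxyl at C25 and CYP27B1 one at C1α, and the product 1,25(OH)2D3 binds the vitamin D receptor (VDR), which pairs with a retinoid X receptor on DNA and induces, among others, CYP24A1, the hydroxylase that inactivates the hormone. In an alternative route CYP11A1 places a hydroxyl at C20, and 20(OH)D3 can then be hydroxylated at C1α to 1,20(OH)2D3. Skin cells, melanocytes and melanoma cells are known to respond to compounds of both routes.

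Expression was read as FPKM, which scales fragments to the length of the gene and to the size of the library. Of 54826 gene entries, 12993 averaged 1 FPKM or more in the 4 libraries and were compared on the log2(FPKM + 0.1) scale, which understates the change of genes with low values. The sum of FPKM was 614230 to 651658 per library, 12894 to 13057 entries reached 1 FPKM, and mitochondrially encoded entries took 7.18% to 8.74%. The read depth is unknown, although steps among low values of 1340 entries put the relative worth of 1 fragment between 0.966 and 1.01. VDR mRNA was at 13.2 and 14.8 FPKM with 1,20(OH)2D3 and 20(OH)D3 in the libraries labelled VDR-KD, and at 6.75 and 5.54 FPKM in those labelled VDR-WT. The mRNA level thus went against the label, and the genotype names below are those of the labels only. Of the 7 melanocyte markers all 7 were tested, whereas 1 of 7 keratinocyte, 3 of 7 fibroblast, 1 of 7 endothelial and 1 of 8 leukocyte markers were. Among the fibroblast markers LUM, a matrix proteoglycan, was at 127 and 87.7 FPKM with 1,20(OH)2D3, against 94.7 and 89.4 FPKM with 20(OH)D3.

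The leading genes of the comparison were PRSS33, PI15 and PLB1, chosen with earlier results of these data known, and each was at a higher level with the C1α hydroxyl present in both genotypes. PRSS33, which encodes a secreted serine protease, was at 6.18 and 7.71 FPKM with 1,20(OH)2D3 (VDR-KD, then VDR-WT, here and below), against 1.18 and 2.17 FPKM with 20(OH)D3. PI15, whose product belongs to the family of cysteine-rich secretory proteins and inhibits trypsin weakly, was at 64.6 and 58.2 FPKM with 1,20(OH)2D3, against 14.3 and 21.7 FPKM with 20(OH)D3. PLB1, a phospholipase of the membrane, was at 11.3 and 8.63 FPKM with 1,20(OH)2D3, against 3.82 and 3.72 FPKM with 20(OH)D3. For each of them both 1,20(OH)2D3 libraries lay above both 20(OH)D3 libraries. How many of all entries were separated in this way was not counted, here or for the genes below. Such a separation is thus a description only. With ethanol, which the comparison does not use, PRSS33 was at 0.887 and 1.37 FPKM, PI15 at 17.2 and 19.4 FPKM and PLB1 at 6.81 and 5.35 FPKM. The log2 difference was 2.04 for PRSS33 (95% interval 1.58 to 2.49), 1.79 for PI15 (1.35 to 2.23) and 1.37 for PLB1 (1.01 to 1.73).

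None of the 3 genes passed the test over all genes. Adjusted p was 0.0596 for PRSS33, 0.0649 for PI15 and 0.0674 for PLB1 (limma with Benjamini-Hochberg adjustment, fitted to the 8 libraries of the 4 compounds with genotype as a term). In a fit to all 10 libraries, ethanol included, they passed with adjusted p of 0.0267, 0.0267 and 0.0346 from limma. They also passed when only protein-coding entries were tested, a choice made after seeing the data, with adjusted p of 0.0227, 0.0227 and 0.0407 from limma. Neither change alters the differences themselves. Over all alternatives tried, adjusted p from limma ranged between 0.0227 and 0.585 for PRSS33, between 0.0227 and 0.565 for PI15 and between 0.0346 and 0.784 for PLB1. PRSS33 lies on chromosome 16 from 2783953 to 2787948 on the minus strand, PI15 on chromosome 8 from 74824534 to 74855029 on the plus strand, and PLB1 on chromosome 2 from 28457145 to 28643788 on the plus strand (GENCODE 29, GRCh38).

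**Figure D1:**
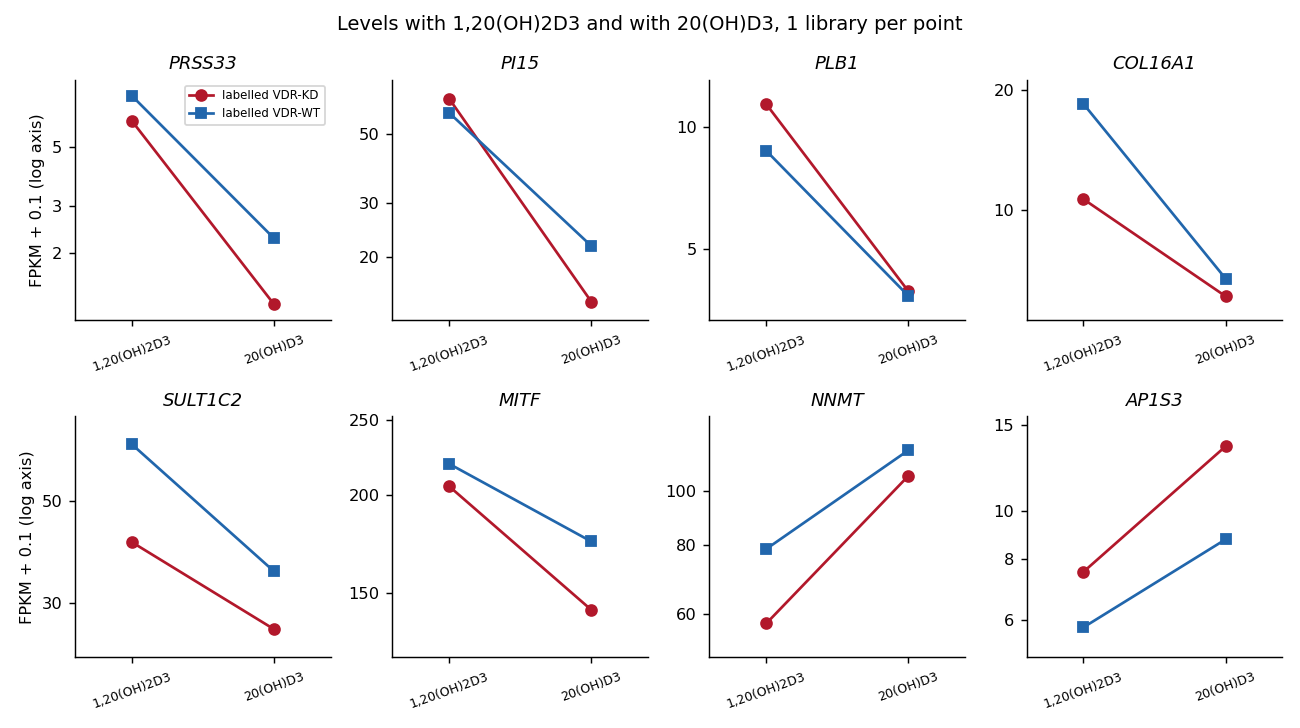
FPKM + 0.1 on a log axis with 1,20(OH)2D3 and 20(OH)D3 for 8 genes, with 1 point per library and a line joining the libraries of a genotype. PRSS33, PI15, PLB1, COL16A1, SULT1C2 and MITF lie higher with 1,20(OH)2D3 in both genotypes, and NNMT and AP1S3 lie lower.

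The promoters of PRSS33 and PLB1 are shown as examples of genes whose mRNAs differed in the same direction in both genotypes. This also held for PI15 and other genes, whose promoters are not shown. The promoter of CPN1 is shown because its response to the C1α hydroxyl differed between the side chains, as described below. Each window covers 250 bases before to 50 after the start of the gene in RefSeq (GRCh38.p14), read 5′ to 3′ on the strand of the gene. Capitals mark matches on either strand to 1 of 6 hexamers known as half-sites of the VDR. These were AGGTCA, then GGTTCA, also AGTTCA, further GGGTCA, likewise GGGTGA and lastly AGGTGA. PRSS33 is at chr16:2787866-2788165, PLB1 at chr2:28495810-28496109 and CPN1 at chr10:100081820-100082119.
PRSS33: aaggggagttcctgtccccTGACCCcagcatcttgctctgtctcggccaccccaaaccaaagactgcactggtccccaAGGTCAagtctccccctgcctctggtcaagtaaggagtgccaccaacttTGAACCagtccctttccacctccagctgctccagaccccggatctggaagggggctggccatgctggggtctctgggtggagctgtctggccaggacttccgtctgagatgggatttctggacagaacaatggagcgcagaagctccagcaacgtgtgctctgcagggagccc
PLB1: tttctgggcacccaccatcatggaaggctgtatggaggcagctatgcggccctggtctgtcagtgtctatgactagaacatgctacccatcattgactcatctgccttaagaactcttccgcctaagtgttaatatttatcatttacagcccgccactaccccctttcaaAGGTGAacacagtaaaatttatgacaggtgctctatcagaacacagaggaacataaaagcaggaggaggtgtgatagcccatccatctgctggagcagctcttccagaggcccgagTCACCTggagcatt
CPN1: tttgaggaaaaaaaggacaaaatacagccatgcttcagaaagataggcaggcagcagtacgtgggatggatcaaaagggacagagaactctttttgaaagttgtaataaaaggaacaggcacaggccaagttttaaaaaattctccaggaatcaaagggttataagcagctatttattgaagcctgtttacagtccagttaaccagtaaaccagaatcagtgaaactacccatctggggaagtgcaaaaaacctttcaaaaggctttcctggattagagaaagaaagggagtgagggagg
The PRSS33 window held 3 hexamers, AGGTCA at -172, and on the opposite strand GGTTCA at -123 and GGGTCA at -231 from the start. PLB1 held 2 copies of AGGTGA, at -80 and, on the opposite strand, at 36, and CPN1 held 0. No match overlapped another. Of 35116 promoters of this length, 56.2% hold at least 1 of the hexamers. None of the 3 windows has 2 of them as a direct repeat with 3 bases between, an arrangement present in 0.177% of promoters. The start used for PLB1 in RefSeq lies inside the GENCODE gene, and RefSeq lists a second start for PRSS33 that is not shown.

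Across all genes, only 1 of 12993 entries passed the test, which is 0.0077%. It fell with 1,20(OH)2D3, and 0 entries rose, although 626 higher and 377 lower entries had an unadjusted p under 0.05 in limma (4.82% and 2.9%, together 7.72%). The entry was COX7CP1, a processed pseudogene of the cytochrome c oxidase subunit gene COX7C on chromosome 13 (49187479 to 49187670, minus strand). It is listed at 0 in both 1,20(OH)2D3 libraries, against 4.44 and 3.41 FPKM with 20(OH)D3 (adjusted p = 0.0416, limma). COX7C itself was at 339 and 354 FPKM with 1,20(OH)2D3, against 378 and 395 FPKM with 20(OH)D3. Reads of such a copy cannot be separated with certainty from those of its parent, and the pseudogene is also listed at 0 in the ethanol library of VDR-WT. Its call was lost when any of the 4 libraries was left out, with adjusted p of 0.24 without 1,20(OH)2D3 in VDR-KD, 0.293 without 1,20(OH)2D3 in VDR-WT, 0.272 without 20(OH)D3 in VDR-KD and 0.296 without 20(OH)D3 in VDR-WT (limma). Over all alternatives it ranged between 0.00376 and 0.707.

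The differences of the genotypes had little in common over all genes. Differences had the same sign in 52.3% of entries, and Spearman's rho between the genotypes was 0.0751 across 12993 genes, which are not independent of each other. A difference of at least 1.5-fold the same way in both genotypes was seen for 152 entries that were higher (1.17%) and 112 that were lower (0.862%) with 1,20(OH)2D3, whereas 198 entries (1.52%) differed by as much in opposite directions. With protein-coding entries of at least 5 FPKM on average, 19 of 7576 were higher in both genotypes (0.251%), 3 were lower in both (0.0396%) and 18 went opposite ways (0.238%).

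**Figure D2:**
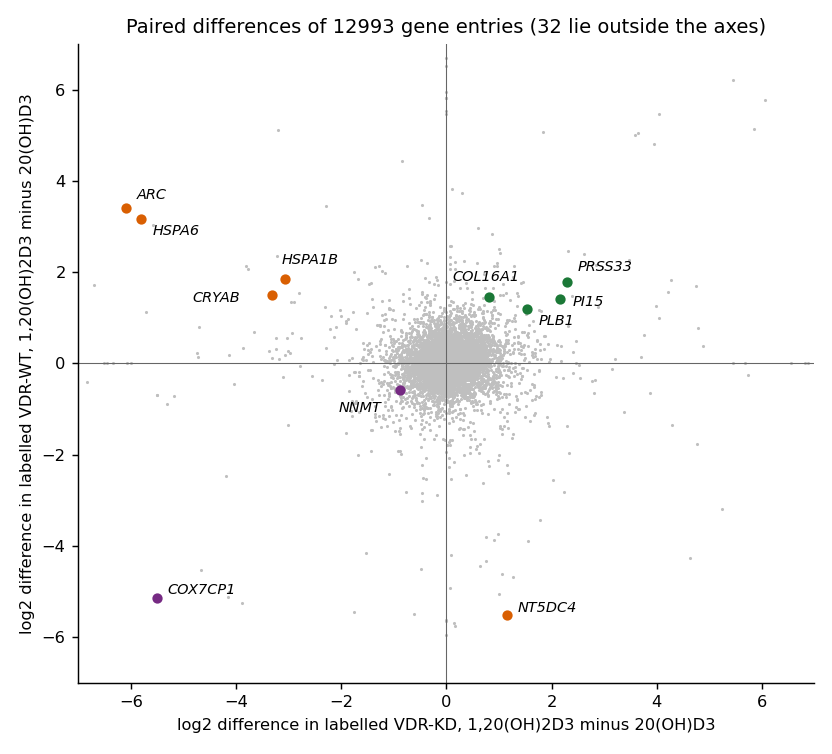
Log2 difference of each entry in the libraries labelled VDR-KD (horizontal) and VDR-WT (vertical), 1,20(OH)2D3 minus 20(OH)D3, with 1 grey point per entry and 32 entries outside the axes. PRSS33, PI15 and PLB1 lie in the upper right, COX7CP1 in the lower left, and HSPA6, ARC, HSPA1B and CRYAB in the upper left, where the genotypes disagree.

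The 12 largest rises by value among well expressed protein-coding genes, none of which passed the test, were led by PI15 and PLB1. The others had log2 differences from 0.77 upwards. COL16A1, a collagen of the extracellular matrix, was at 10.6 and 18.4 FPKM with 1,20(OH)2D3, against 5.99 and 6.65 FPKM with 20(OH)D3. PXDN, a peroxidase that crosslinks collagen IV, was at 10.0 and 8.98 FPKM with 1,20(OH)2D3, against 4.47 and 5.68 FPKM with 20(OH)D3. MUC19, a gel-forming mucin, was at 5.09 and 13.6 FPKM with 1,20(OH)2D3, against 2.7 and 6.03 FPKM with 20(OH)D3. The values of MUC19 overlapped between the compounds because both were higher in VDR-WT, and those of COL16A1 and PXDN did not overlap.

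Enzymes were among the remaining members of this group. SULT1C2, a cytosolic sulfotransferase, was at 40.5 and 66.1 FPKM with 1,20(OH)2D3, against 26.2 and 35.0 FPKM with 20(OH)D3 (log2 difference 0.77, 95% interval 0.49 to 1.06, adjusted p = 0.366 from limma). NMRK2, a nicotinamide riboside kinase, was at 8.62 and 13.9 FPKM with 1,20(OH)2D3, against 3.30 and 9.12 FPKM with 20(OH)D3. PIF1, a DNA helicase, was at 15.6 and 19.4 FPKM with 1,20(OH)2D3, against 8.90 and 10.4 FPKM with 20(OH)D3. The values of SULT1C2 and PIF1 were separate between the compounds, and those of NMRK2 overlapped. The log2 differences of the last 4 members were 0.94 for PPP1R16A, a regulatory subunit of protein phosphatase 1, 0.90 for ACCS, 0.90 for SPATA33 and 0.84 for RNF207.

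On the side of lower values, NNMT, which methylates nicotinamide and consumes S-adenosylmethionine, was the most abundant of the 3 genes under the same rule. It was at 57.6 and 78.5 FPKM with 1,20(OH)2D3, against 106 and 118 FPKM with 20(OH)D3, and the groups did not overlap. Its log2 difference was -0.74 (95% interval -0.97 to -0.50, adjusted p = 0.184 from limma). AP1S3, a subunit of an adaptor complex of vesicle transport, was at 7.43 and 5.71 FPKM with 1,20(OH)2D3, against 13.4 and 8.67 FPKM with 20(OH)D3. TMEM234 was at 3.95 and 5.59 FPKM with 1,20(OH)2D3, against 7.37 and 9.24 FPKM with 20(OH)D3. Neither gene overlapped between the compounds, and neither passed the test.

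Whether the C1α hydroxyl acts alike on another side chain was asked with the pair 1,25(OH)2D3 and 25(OH)D3. The same hydroxyl sets them apart, and dose and time were the same. The 2 differences share no library. The difference between them was tested for every gene in the same fit, with 1 pair of compounds on each side chain. Of 12993 entries, 3 passed (0.0231%), and in all 3 the difference was smaller on the 20-hydroxylated side chain, while 0 entries passed in the other direction and 1096 had an unadjusted p under 0.05 in limma. These were PRSS33, SEMA3B and CPN1, each with an adjusted p of 0.0412 from limma. Under some other settings, given at the end, entries also passed in the other direction.

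PRSS33 was at 56.5 and 67.7 FPKM with 1,25(OH)2D3, against 1.43 and 1.64 FPKM with 25(OH)D3. This is a log2 difference of 5.25, from which that of 1,20(OH)2D3 and 20(OH)D3 differed by -3.21 (95% interval -3.86 to -2.56). SEMA3B, a secreted semaphorin that restrains tumor growth, was at 9.74 and 10.1 FPKM with 1,20(OH)2D3, against 5.84 and 6.94 FPKM with 20(OH)D3. With 1,25(OH)2D3 it was at 54.4 and 49.8 FPKM, against 5.21 and 7.07 FPKM with 25(OH)D3, and the differences were thus 0.63 and 3.08, which differed by -2.44 (-2.96 to -1.93). CPN1, the catalytic chain of carboxypeptidase N, was at 9.64 and 14.6 FPKM with 1,20(OH)2D3, against 7.71 and 11.5 FPKM with 20(OH)D3. Its difference was 0.33 here and 2.08 for 1,25(OH)2D3 minus 25(OH)D3, and these differed by -1.75 (-2.14 to -1.36). All 3 calls were lost when any 1 of the 8 libraries was left out, with adjusted p between 0.0547 and 0.389 from limma, while the differences kept their sign.

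For PI15 and PLB1 no difference between the side chains was called, and their intervals do not show that the side chains act alike. In PI15 the differences were 1.79 here and 2.95 for 1,25(OH)2D3 minus 25(OH)D3, apart by -1.16 (95% interval -1.78 to -0.53, adjusted p = 0.301 from limma). In PLB1 they were 1.37 and 1.88, apart by -0.52 (-1.03 to -0.01, adjusted p = 0.579 from limma). COL16A1, MUC19 and SULT1C2 had differences of 1.13, 1.03 and 0.77 here, against 2.04, 2.28 and 1.81 on the 25-hydroxylated side chain. Only 6 of the 12 largest rises named above had a larger difference on that side chain. The others had a smaller one there, such as RNF207 with 0.84 here against 0.01. CYP24A1 was below the filter and not tested. It was at 0.49 and 0.505 FPKM with 1,20(OH)2D3, against 0.0441 and 0.187 FPKM with 20(OH)D3. With ethanol CYP24A1 was at 0.452 and 0.0777 FPKM, so the ethanol level in VDR-KD was close to that with 1,20(OH)2D3. With 1,25(OH)2D3 it was at 77.3 and 56.8 FPKM, while it is listed at 0 in both 25(OH)D3 libraries.

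Most genes that differed with C1α hydroxylation of 25(OH)D3 had a difference of the same sign, and a smaller median, on 20(OH)D3. In the same fit, 285 genes were higher (2.19%) and 105 lower (0.808%) with 1,25(OH)2D3 than with 25(OH)D3. Of the 285, 256 were higher with 1,20(OH)2D3 than with 20(OH)D3, with a median log2 difference of 0.24, against 0.80 on the side chain that chose them. In both genotypes 214 of them were higher (75.1%), against 27.6% of all genes. Of the 105, 91 were lower with 1,20(OH)2D3, with a median of -0.25, against -0.94 on the side chain that chose them, and 74 were lower in both genotypes (70.5%), against 24.6% of all genes. By genotype the medians were 0.28 in VDR-KD and 0.18 in VDR-WT for the 285 genes, and -0.29 and -0.15 for the 105. The choice of these genes used the spread over all 8 libraries, and the size on the chosen side is raised by the choice itself. With genes chosen by fold alone, at least 1.5-fold in both genotypes, 213 of 363 higher genes (58.7%) and 134 of 333 lower genes (40.2%) kept their direction in both genotypes. The medians of these were 0.38 in VDR-KD and 0.21 in VDR-WT for the 363 genes, and -0.39 and -0.06 for the 333. Levels of some heat shock genes, such as HSPA6 with values given later, also differed within the VDR-KD pair and between 1,25(OH)2D3 and 25(OH)D3. Their part in these counts was not tested. Of the 12 largest rises named above, 11 were also higher with 1,25(OH)2D3 than with 25(OH)D3. Of these, 6 passed that test, against 2.19% of all genes called higher. Of the 3 falls, 2 were also lower, and 1 of these passed, against 0.808% of all genes called lower. The shares of all genes higher or lower with 1,25(OH)2D3 than with 25(OH)D3, at any size, were not counted. PI15 and PLB1, among the 12 rises, were chosen with earlier results of these data known.

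**Figure D3:**
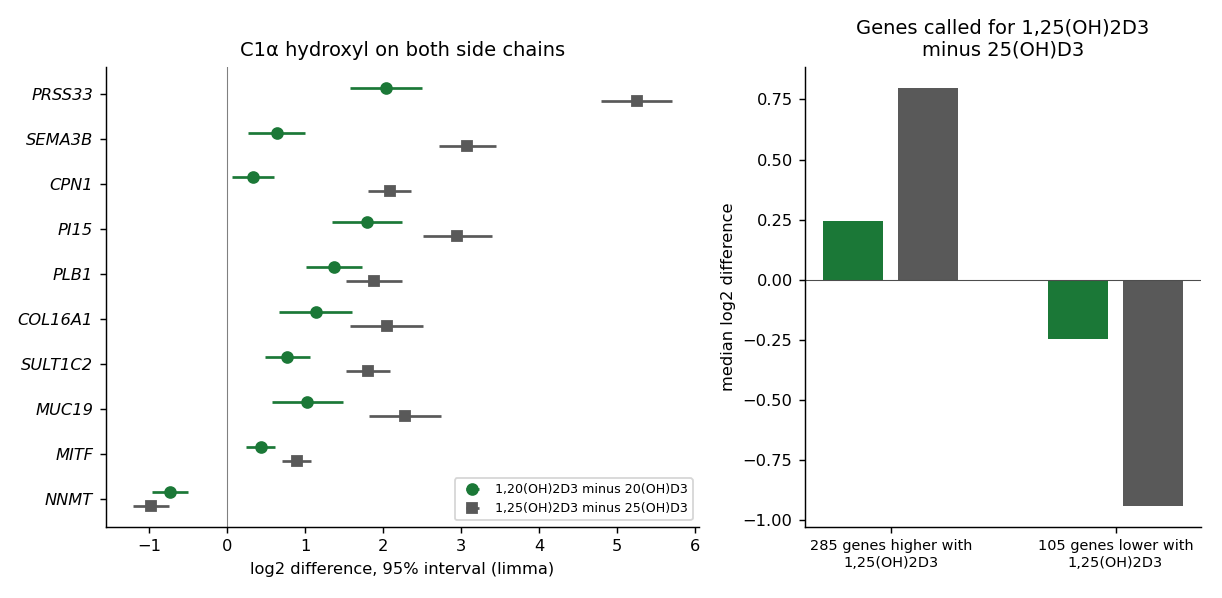
Left, log2 difference with its 95% interval from limma for 1,20(OH)2D3 minus 20(OH)D3 (circles) and 1,25(OH)2D3 minus 25(OH)D3 (squares) in 10 genes. Right, the median of the same differences over the 285 and 105 genes called for 1,25(OH)2D3 minus 25(OH)D3, where the bars for 1,20(OH)2D3 minus 20(OH)D3 (green, at 0.24 and -0.25) are shorter and point the same way.

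No tested member of the classical vitamin D pathway was called in this comparison, which does not show that their levels were equal. Of 20 VDR target genes, 9 were tested, and 1 of them, SEMA3B, had an unadjusted p under 0.05. SPP1, or osteopontin, was at 42.7 and 62.2 FPKM with 1,20(OH)2D3, against 51.4 and 52.3 FPKM with 20(OH)D3 (log2 difference -0.01, 95% interval -0.34 to 0.32). IGFBP3, an insulin-like growth factor binding protein, was at 10.5 and 13.9 FPKM with 1,20(OH)2D3, against 20.5 and 11.2 FPKM with 20(OH)D3, so the genotypes differed in sign. CDKN1A, which encodes the cell cycle inhibitor p21, was at 2.75 and 2.45 FPKM with 1,20(OH)2D3, against 4.20 and 2.39 FPKM with 20(OH)D3. The intervals of the remaining tested targets, NINJ1, TXNIP, LRP5, SLC37A2 and OSBP2, included 0 as well.

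Of 13 genes of vitamin D synthesis, activation and uptake, 7 were tested, and 0 had an unadjusted p under 0.05. CYP2R1, the main 25-hydroxylase, was at 13.9 and 11 FPKM with 1,20(OH)2D3, against 13.4 and 10.6 FPKM with 20(OH)D3 (95% interval of the log2 difference -0.45 to 0.56). CYP27A1, a mitochondrial sterol hydroxylase, was at 24.4 and 17.5 FPKM with 1,20(OH)2D3, against 17.5 and 19.1 FPKM with 20(OH)D3. DHCR7, which turns the precursor 7-dehydrocholesterol into cholesterol, was at 219 and 114 FPKM with 1,20(OH)2D3, against 155 and 109 FPKM with 20(OH)D3 (95% interval -0.03 to 0.59).

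Of 15 nuclear receptors and partners proposed for hydroxylated vitamin D, 11 were tested with 0 at an unadjusted p under 0.05. VDR itself had a log2 difference of 0.06 (95% interval -0.47 to 0.58). The retinoid X receptors RXRA and RXRB had differences of -0.07 and 0.10. The liver X receptors NR1H3 and NR1H2 had differences of 0.13 and 0.02, and ARNT, the partner of the aryl hydrocarbon receptor, one of 0.00. Each of these intervals included 0.

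Of 25 pigment and MITF target genes, 19 were tested and none was called. With 1,20(OH)2D3, 12 of them were higher in both genotypes and 7 differed in sign between the genotypes, with 17 higher in VDR-KD and 14 in VDR-WT. At an unadjusted p under 0.05, 6 were higher, against 4.82% of all genes, and 0 were lower, against 2.9%. Their median log2 difference was 0.27 in VDR-KD and 0.07 in VDR-WT, against 0.01 and 0.00 over all genes. MITF, the transcription factor of the melanocyte lineage, was at 205 and 219 FPKM with 1,20(OH)2D3, against 143 and 174 FPKM with 20(OH)D3 (log2 difference 0.43, 95% interval 0.24 to 0.61, adjusted p = 0.368 from limma). DCT, an enzyme of melanin synthesis, was at 394 and 347 FPKM with 1,20(OH)2D3, against 265 and 301 FPKM with 20(OH)D3. TRPM1, a cation channel of melanocytes, was at 47.4 and 36.9 FPKM with 1,20(OH)2D3, against 29.6 and 29.9 FPKM with 20(OH)D3.

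TYR, the first enzyme of melanin synthesis, was among those that differed in sign, at 146 and 189 FPKM with 1,20(OH)2D3, against 129 and 193 FPKM with 20(OH)D3. In MITF, DCT, TRPM1 and MLANA both 1,20(OH)2D3 libraries were above both 20(OH)D3 libraries, and the share of all genes separated so was not counted. MLANA, a melanosomal antigen, was at 2349 and 2550 FPKM with 1,20(OH)2D3, against 1800 and 2239 FPKM with 20(OH)D3. Among the 7 markers of melanocyte identity, 5 were higher with an unadjusted p under 0.05, against 4.82% of all genes. These markers share most of their genes with the pigment list, so the counts of the lists overlap. S100B, a calcium-binding protein among the markers, had a log2 difference of 0.31. The summed level of all pigment genes with an entry of their own, tested or not, was 9837 and 10302 FPKM with 1,20(OH)2D3, against 7564 and 9678 FPKM with 20(OH)D3. Most of its distance thus came from the 20(OH)D3 library of VDR-KD.

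MAPK signalling is active in most melanomas and induces genes that feed back on it. Of 17 such genes, 16 were tested and none was called. With 1,20(OH)2D3, 8 were lower in both genotypes, 1 was higher in both and 7 differed in sign. At an unadjusted p under 0.05, 5 were lower, against 2.9% of all genes, and 0 were higher, against 4.82%. The medians of the 16 tested members were -0.11 in VDR-KD and -0.18 in VDR-WT. The 4 genes described next are the members with the largest mean differences, all of them negative. PHLDA1 was at 57.0 and 63.2 FPKM with 1,20(OH)2D3, against 94.1 and 70.2 FPKM with 20(OH)D3 (log2 difference -0.44, 95% interval -0.77 to -0.10). IER3, an early response gene of cell survival, was at 71.2 and 86.1 FPKM with 1,20(OH)2D3, against 129 and 102 FPKM with 20(OH)D3. DUSP5, a phosphatase of ERK, was at 4 and 3.35 FPKM with 1,20(OH)2D3, against 6.75 and 4.02 FPKM with 20(OH)D3. SPRED1, an inhibitor of RAS signalling, was at 13.7 and 16.8 FPKM with 1,20(OH)2D3, against 18.2 and 19.4 FPKM with 20(OH)D3. PHLDA1, IER3 and SPRED1 did not overlap between the compounds, and neither did DUSP5.

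PLB1, PRSS33 and PI15 were then set among genes of like function. Of 32 phospholipases, 17 were tested. PLCB1, a phospholipase C that cuts inositol lipids, was at 2.61 and 1.99 FPKM with 1,20(OH)2D3, against 4.71 and 3.94 FPKM with 20(OH)D3 (log2 difference -0.89, 95% interval -1.35 to -0.43, adjusted p = 0.42 from limma). PLA2G6, a calcium-independent phospholipase A2, was at 44.6 and 72.3 FPKM with 1,20(OH)2D3, against 31.5 and 48.1 FPKM with 20(OH)D3. Of 33 serine proteases, 9 were tested, and PRSS33, around which the list was drawn up, was the 1 with an unadjusted p under 0.05. Of 34 protease inhibitors, 20 were tested, and 1 was higher and 1 lower at an unadjusted p under 0.05, against 4.82% and 2.9% of all genes. The higher was PI15, around which this list was drawn up, so neither count is a result about its list. CST1, a cystatin, was at 17.5 and 76.8 FPKM with 1,20(OH)2D3, against 10.0 and 66.0 FPKM with 20(OH)D3, so its levels followed the genotype more than the compound.

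Of 25 cholesterol synthesis genes, 23 were tested and none was called. Their medians were 0.26 in VDR-KD and 0.02 in VDR-WT, with 21 higher in VDR-KD, 13 in VDR-WT and 12 in both. FASN, fatty acid synthase and counted with the liver X receptor targets, was at 127 and 73.3 FPKM with 1,20(OH)2D3, against 95 and 57.2 FPKM with 20(OH)D3 (log2 difference 0.39, 95% interval 0.18 to 0.59, adjusted p = 0.42 from limma). Of 19 clock genes, 13 were tested. PER3 was at 6.98 and 8.91 FPKM with 1,20(OH)2D3, against 4.52 and 6.81 FPKM with 20(OH)D3. TEF, a clock-controlled transcription factor, was at 2.05 and 1.57 FPKM with 1,20(OH)2D3, against 4.06 and 2.87 FPKM with 20(OH)D3. CSF1, which maintains macrophages, was at 1.38 and 0.609 FPKM with 1,20(OH)2D3, against 3.84 and 1.85 FPKM with 20(OH)D3.

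Among 36 replication and mitosis genes, 34 were tested and had medians of 0.00 in VDR-KD and -0.02 in VDR-WT, with 0 at an unadjusted p under 0.05. MKI67, which encodes the proliferation marker Ki-67, was at 55.8 and 54.9 FPKM with 1,20(OH)2D3, against 47.1 and 47.8 FPKM with 20(OH)D3 (95% interval of the log2 difference -0.02 to 0.46). Of 22 p53 targets, 17 were tested with medians of 0.04 and -0.03. With 1,20(OH)2D3, 4 of them were higher in both genotypes, 4 were lower in both and 9 differed in sign. GDF15, a stress-induced cytokine among them, was at 234 and 204 FPKM with 1,20(OH)2D3, against 141 and 165 FPKM with 20(OH)D3. Of 33 interferon-stimulated genes, 27 were tested with medians of 0.01 and -0.02, and IFI27 was at 0.629 and 2.63 FPKM with 1,20(OH)2D3, against 0.0399 and 0.877 FPKM with 20(OH)D3.

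**Figure D4:**
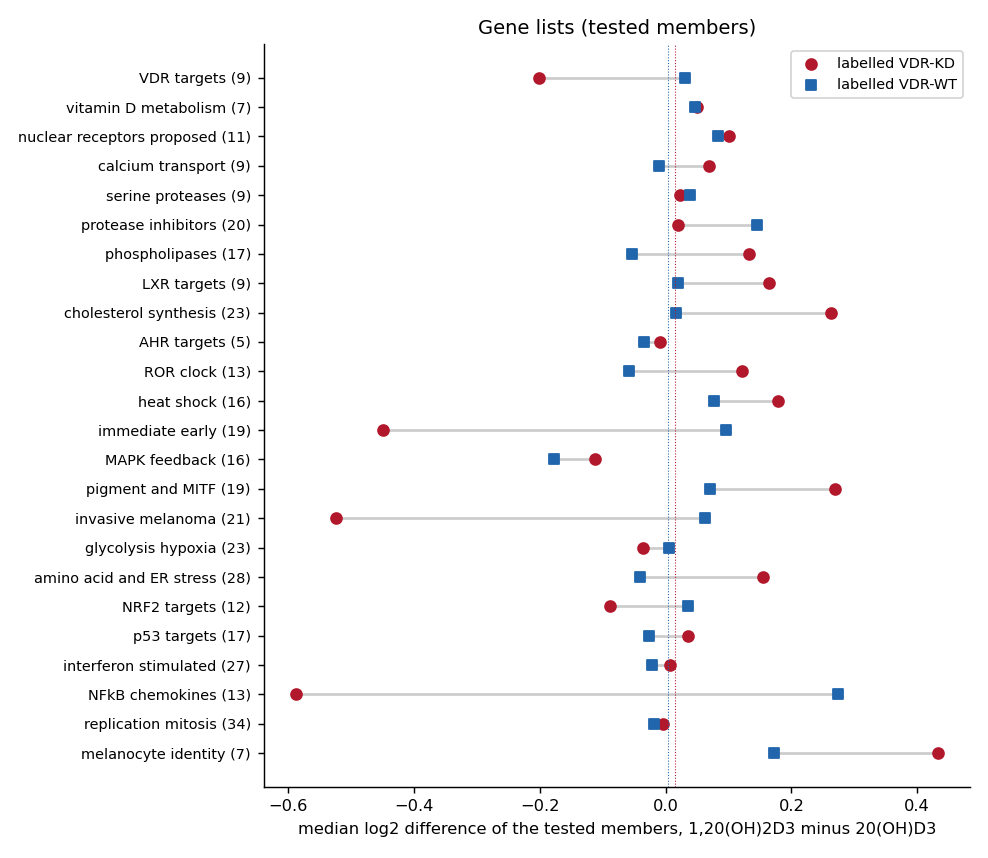
Median log2 difference, 1,20(OH)2D3 minus 20(OH)D3, over the tested members of 24 gene lists (number in brackets), with circles for VDR-KD and squares for VDR-WT. Dotted lines mark the median of all genes, at 0.01 and 0.00. The medians of melanocyte identity and pigment genes lie to the right in both genotypes and that of MAPK feedback genes to the left, while NFkB, invasive and immediate early genes lie left in VDR-KD and right in VDR-WT.

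In several lists the genotypes went apart. The median was -0.59 in VDR-KD and 0.27 in VDR-WT for NFkB target and chemokine genes, -0.52 and 0.06 for genes of invasive melanoma, and -0.45 and 0.10 for immediate early genes. The well expressed protein-coding genes that differed at least 2-fold in opposite directions numbered 8 of 7576 (0.106%). HSPA6, an inducible HSP70 chaperone, was at 0.468 and 6.71 FPKM with 1,20(OH)2D3, against 31.6 and 0.655 FPKM with 20(OH)D3. HSPA1A, another inducible HSP70, was at 16.6 and 28.7 FPKM with 1,20(OH)2D3, against 123 and 11.2 FPKM with 20(OH)D3. ARC, an immediate early gene, was at 0.269 and 3.15 FPKM with 1,20(OH)2D3, against 25.2 and 0.207 FPKM with 20(OH)D3. The 20(OH)D3 library of VDR-KD was the highest of the 4 in each, and the pair in VDR-WT ran the other way. These genes were picked for that pattern, which the heat shock list as a whole did not show. Of 20 heat shock genes, 16 were tested, with medians of 0.18 in VDR-KD and 0.08 in VDR-WT. With 1,20(OH)2D3, 8 were higher in both genotypes, 1 was lower in both and 7 differed in sign.

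Among the other libraries, HSPA6 was at 0.72 and 0.176 FPKM with 1,25(OH)2D3, against 44.5 and 15.7 FPKM with 25(OH)D3 and 32.3 and 9.37 FPKM with ethanol. Low values were thus found in 1,20(OH)2D3 of VDR-KD, in 20(OH)D3 of VDR-WT and in both 1,25(OH)2D3 libraries. CRYAB, a small heat shock protein, was at 3.55 and 10.2 FPKM with 1,20(OH)2D3, against 36.1 and 3.56 FPKM with 20(OH)D3, and CXCL8, the chemokine interleukin-8, at 0.922 and 4.18 FPKM, against 12.8 and 2.57 FPKM. Without the 1,20(OH)2D3 library of VDR-KD and the 20(OH)D3 library of VDR-WT the difference was 2.38 for PRSS33, 2.17 for PI15 and 1.44 for PLB1, and none was called (adjusted p of 0.585, 0.233 and 0.784 from limma). Each of these then sets VDR-WT with 1,20(OH)2D3 against VDR-KD with 20(OH)D3, with the genotype term estimated from the remaining libraries. The part of these levels in the differences between the compounds was not tested.

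**Figure D5:**
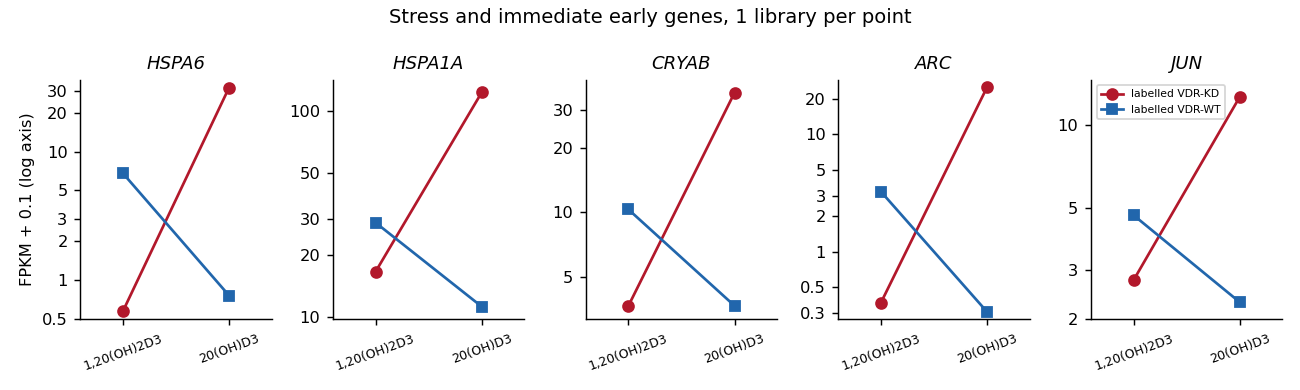
FPKM + 0.1 on a log axis with 1,20(OH)2D3 and 20(OH)D3 for HSPA6, HSPA1A, CRYAB, ARC and JUN, with 1 point per library and a line joining the libraries of a genotype. In each panel the lines cross, with VDR-KD higher with 20(OH)D3 and VDR-WT higher with 1,20(OH)2D3.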

How the data were processed

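The deposited table holds FPKM of 10 RNA-seq libraries, made by the authors with STAR 2.7.1a, Cufflinks 2.2.1 and Cuffdiff on GRCh38. Annotation, read filters, strand and read numbers are not stated there, so that no counting error could be computed. Of the entries, 2050 merge several names, and a gene in such an entry was not named.

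Entries averaging 1 FPKM or more in the 4 libraries were tested on log2(FPKM + 0.1) with limma 3.58.1 in R 4.3.3 (lmFit, eBayes with a trend) and Benjamini-Hochberg adjustment at 0.05. The fit took the 8 compound libraries, compound and genotype, with 3 residual degrees of freedom. The fit was also run on simulated data with known changes. Those data had independent noise and no genotype effect, so the run does not show how the fit behaves on these libraries.

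The compounds, the members and the 28 gene lists were chosen with earlier results of these data known. Named were the 3 leading genes and tested members of the VDR target, vitamin D metabolism and nuclear receptor lists, genes that passed either test, up to 12 largest rises and falls at least 1.5-fold the same way in both genotypes among protein-coding genes of at least 5 FPKM, up to 4 members per list, and 6 genes with opposite differences. An item named by this rule is not reported here. CYP24A1, which was below the filter, COX7C and TYR were named after their values were seen. Alternatives changed the added constant, filter, scaling, block, trend and libraries. Python 3.11.15, numpy 2.4.6, pandas 2.3.3 and matplotlib 3.10.9 were used, with coordinates from GENCODE 29 and promoters from RefSeq.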

Additional observations from a re-analysis of the deposited data

Results flagged for a closer look

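Genes whose paired differences ran opposite ways in the genotypes were picked out for that reason alone, and the difference between the genotypes was not tested, since each has 1 library per compound. The log2 difference of VDR-KD minus that of VDR-WT was -9.50 for ARC, -8.98 for HSPA6, -4.92 for HSPA1B, -4.81 for CRYAB and -4.25 for HSPA1A. It was -4.28 for FOSB, -3.24 for JUN and -3.19 for PTHLH, which encodes a parathyroid hormone-like peptide. For NT5DC4 it was 6.67, but this gene is listed at 0 in 1 of the 4 libraries.

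The response to the C1α hydroxyl differed by side chain, by the test of the difference itself, in PRSS33 (-3.21), SEMA3B (-2.44) and CPN1 (-1.75), each with an adjusted p of 0.0412 from limma.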

How the results depend on the processing

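For 1,20(OH)2D3 minus 20(OH)D3 the count of called genes was 1. It was 3 with a constant of 1, 2 with 0.01, 0 without a filter, 0 with a filter of 5 FPKM, 4 with all 10 libraries, 0 without the genotype block, 3 without the trend, 3 with a robust fit, 2 with only the 4 libraries, 0 without both 1,20(OH)2D3 in VDR-KD and 20(OH)D3 in VDR-WT, and 3 with protein-coding entries only, a choice made after seeing the data. Leaving out 1 library gave 0 to 2. By side chain the count was 3, and it was 9, 7, 0, 6, 8, 0, 2 and 7 under the same settings from the constant of 1 to the robust fit, 0 without the 2 libraries, 9 with protein-coding entries only and 0 to 4 with 1 library left out. Median scaling and quantile normalization changed neither count. The direction was less stable than the counts. By side chain, 1 call was positive with a constant of 1, with 0.01, with a robust fit and with protein-coding entries only. With a filter of 5 FPKM and with all 10 libraries 2 were positive. Fits with 1 library left out also gave positive calls by side chain, and without 1,20(OH)2D3 in VDR-KD most were positive. For 1,20(OH)2D3 minus 20(OH)D3, all 10 libraries gave 3 higher and 1 lower, COX7CP1 not among them. Protein-coding entries only gave 3 higher and 0 lower.

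Genes at least 1.5-fold different the same way in both genotypes numbered 264. This was 77 at 2-fold, 125 with a constant of 1, 41 with a filter of 5 FPKM and 1344 without a filter. The differences of PRSS33, PI15 and PLB1 stayed positive under the alternatives run, of which the filter of 5 FPKM leaves out PRSS33, with 1.59 to 2.38, 1.42 to 2.17 and 1.19 to 1.51. With 1 library per condition and no read counts, differences of genes with low values are the least certain.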
